A study of Mus musculus with 6 samples.

Results

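Genes of 9 enzyme families that conjugate, oxidise, reduce or hydrolyse reactive compounds were described in the lung of cold-exposed mice. They are the glutathione S-transferases (Gst), UDP-glucuronosyltransferases (Ugt), cytosolic sulfotransferases (Sult), aldehyde dehydrogenases (Aldh), aldo-keto reductases of family 1 (Akr1), carbonyl reductases (Cbr), flavin-containing monooxygenases (Fmo), carboxylesterases (Ces) and epoxide hydrolases (Ephx). Members were all rows of the deposited gene table whose symbol starts with 1 of these 9 family names followed by a subfamily letter or number, and 112 of the 18174 rows met the rule. The rule reads the symbol alone. The 2 groups compared were wild-type male C57BL/6J mice, an inbred laboratory strain, kept at room temperature and the same strain held at 4 °C for 6 h, with free food and water in both. Whole lung was taken after the treatment, and each group had 3 libraries. Age, pooling and whether each library came from its own animal are not stated in the labels beyond the words biological replicate. The p-values below therefore set group differences against the spread between these libraries, which may not be the spread between animals.

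Detoxification in tissue runs in steps. Monooxygenases, reductases, dehydrogenases and hydrolases expose or change a reactive group, and transferases then couple it to glutathione, glucuronic acid or sulfate, which makes the product soluble and ready for export. The lung meets inhaled chemicals and aldehydes made by lipid peroxidation, and many of these enzymes are known from the non-ciliated secretory (club) cells of the airway lining. Aldehyde dehydrogenases of family 1 also make retinoic acid from retinal.

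The values are RPKM, reads per kilobase and per M (mega) reads, with the kilobases counted over the whole gene span, introns included. Here each value was divided by a scaling factor per library, and the result is called scaled RPKM. Levels of different genes are ranked as RPM per kilobase of exon, where RPM is reads per M reads, unless scaled RPKM is named. Summed levels, shares of a sum and ratios between genes use RPM, which is not corrected for gene length. Depth was 39.7 to 48.7 M reads at room temperature and 32.7 to 35.1 M in the cold. Room temperature replicate 3 stood apart from the other two of its group, with a Pearson's r across genes of 0.961 to 0.979 against 0.986 between replicates 1 and 2. Within the cold group r was 0.989 to 0.991. Markers of lung cell types were present in all libraries, but their sums differed between the groups. The 10 alveolar type 2 genes summed to 4325 to 7142 RPM at room temperature and 12673 to 18044 RPM in the cold. For 14 club and secretory cell genes the sums were 73439 to 98420 and 17383 to 20691 RPM, and for 12 endothelial genes 87.4 to 468 and 2324 to 2765 RPM. Because this is bulk tissue, fewer cells of a type in the tissue taken and less RNA per cell cannot be told apart in any value below.

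Most of the enzymes were lower in the cold lung. Of the 112 members, 92 had enough reads to be tested, and of these 70 fell, 10 rose and 12 did not pass the threshold (limma on log2 values, Benjamini-Hochberg adjusted p under 0.05 over all 15236 genes tested). The share of all tested genes called lower was 35.0% and the share called higher was 35.5%, together 70.5%. Of the tested members 76.1% were called lower and 10.9% higher. The median log2 change of the 92 was -1.34, and over all tested genes it was 0.00. Falls of at least 1 on the log2 scale were called in 56 members and in 16.3% of all genes, and rises of at least 1 in 5 members and in 17.1% of all genes. The lowest room temperature library was above the highest cold library in all 70 that fell, and the groups were apart in 9 of the 10 that rose. Such separation, in either direction, was seen in 82 tested members and in 76.2% of all tested genes. In the authors' deposited table, 57 members were lower and 7 higher at q under 0.05, where 12.0% and 12.7% of all rows were.

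Scaling matters for the balance of rises and falls. Without the scaling factors the median log2 change of all tested genes was 0.29 in place of 0.00, and 65.1% of all calls were rises in place of 50.3%. Under those deposited values 67 members fell and 12 rose, and of the 80 called members 0 changed sign. Without room temperature replicate 3, 67 members fell and 9 rose. No member still tested there lost its call, and Sult2b1 and Aldh1l2 newly passed as lower, so the smaller counts reflect members that no longer met the read filter. That replicate was the lowest of its group in 56 of the 70 members that fell and the highest in 7 of the 10 that rose.

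**Figure D1:**
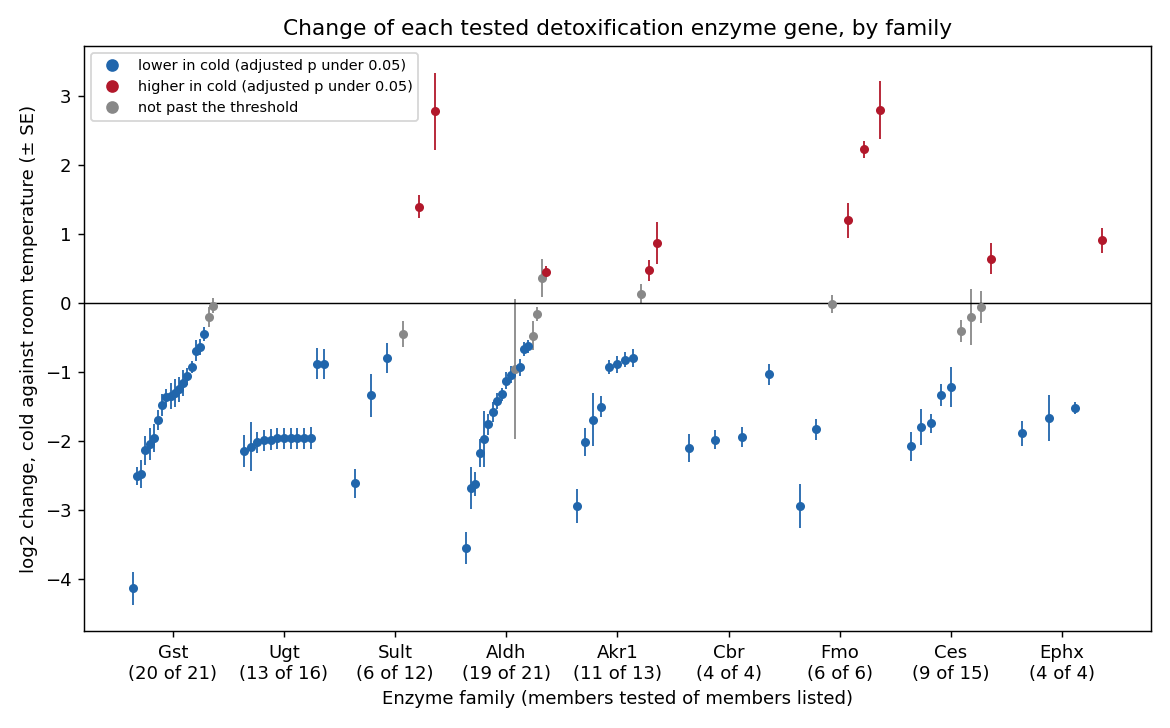
Log2 change in cold against room temperature (y axis, ± SE, 3 libraries a group) of each of the 92 tested members, grouped by family on the x axis. Blue points fell, red points rose and grey points did not pass the threshold. Falls run to -4.14 (Gsto1) and rises to 2.79 (Fmo1), and the Ugt and Cbr families hold no red or grey point. Of the Ugt points, 9 are Ugt1a rows with nearly the same reads. Ugt2a1, Ugt2a2 and Ugt2b34 passed the read filter through the room temperature group only.

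Not all rows are separate measurements. The 9 Ugt1a genes are alternative first exons spliced to common last exons, 1311 exon bases are common to each of them and Ugt1a1, and their 9 rows carried nearly the same reads (113 to 134 RPM in room temperature replicate 1 and 37.3 to 41.4 RPM in cold replicate 1, before scaling). Ugt2a1 and Ugt2a2 share most of their exons in the same way. Counting each of these clusters once left 83 tested members, of which 61 fell, 10 rose and 12 did not pass. In all, 26 rows share over 20% of their 50-base stretches with another gene, the Ugt1a rows included, and without those 26 there were 49 falls, 10 rises and 12 others among 71 tested. The other 20 members had at most 26 reads in any library and were not tested. They were Gstt4, Ugt2a3, Ugt2b35, Ugt2b5, Sult1c1, Sult1c2, Sult1e1, Sult2a1, Sult2a2, Sult6b1, Aldh3b3, Aldh8a1, Akr1c21, Akr1cl, Ces1c, Ces2c, Ces2d-ps, Ces2f, Ces4a and Ces5a. A further 5 (Akr1b7, Sult4a1, Ugt2a1, Ugt2a2 and Ugt2b34) reached the equivalent of 10 reads in a library of median depth in 1 group only, so they could hardly pass the filter without differing. Akr1c12 and Gsta1 reached it in 1 cold library, and by reads as sequenced these 7 were under 10 in every library of 1 group. The other 85 tested members gave 64 falls, 9 rises and 12 not past the threshold.

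Control elements for such genes have known core letters. The antioxidant response element, bound by NRF2 (Nfe2l2) with small MAF proteins, has the core TGACNNNGC, and the xenobiotic response element, bound by the aryl hydrocarbon receptor (Ahr) with ARNT, has the core GCGTG. Both were searched on both strands in RefSeq promoter windows of 250 bases before and 50 after the start (GRCm38.p6), which matched 92 of the members with 107 windows. The first core was in 6.54% of member windows and in 12.4% of all 32851 windows, and the second in 22.4% and 32.4%. A match is a description of letters and not of binding. As examples, the 250 upstream bases are shown for 6 members that hold a core and whose values are given below, 5 that fell and Aldh3a2, which rose. Other members with values below, such as Gstm1 and Gstp1, hold a core too and are not shown. The printed bases have the core in capitals on the gene's strand, where a core on the other strand reads CACGC. They lie at chr1:21240335-21240584 on the plus strand for Gsta3, chr3:107895604-107895853 on the plus strand for Gstm5, chr5:87569007-87569256 on the minus strand for Sult1d1, chr6:34353896-34354145 on the plus strand for Akr1b8, chr16:93607587-93607836 on the plus strand for Cbr1 and chr11:61267187-61267436 on the minus strand for Aldh3a2.
Gsta3: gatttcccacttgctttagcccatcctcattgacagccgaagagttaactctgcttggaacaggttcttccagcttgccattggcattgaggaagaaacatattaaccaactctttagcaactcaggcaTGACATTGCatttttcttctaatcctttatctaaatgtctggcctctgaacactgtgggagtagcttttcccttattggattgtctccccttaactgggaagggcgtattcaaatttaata
Gstm5: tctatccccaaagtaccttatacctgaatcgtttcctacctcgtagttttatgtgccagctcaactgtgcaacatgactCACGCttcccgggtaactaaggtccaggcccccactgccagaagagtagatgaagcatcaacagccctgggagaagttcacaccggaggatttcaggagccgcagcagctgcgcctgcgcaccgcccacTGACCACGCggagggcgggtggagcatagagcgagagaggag
Sult1d1: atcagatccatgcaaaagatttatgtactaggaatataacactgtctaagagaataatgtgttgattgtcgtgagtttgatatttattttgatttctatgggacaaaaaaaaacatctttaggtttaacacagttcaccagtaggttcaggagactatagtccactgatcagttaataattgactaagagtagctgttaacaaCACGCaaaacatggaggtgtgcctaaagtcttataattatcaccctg
Akr1b8: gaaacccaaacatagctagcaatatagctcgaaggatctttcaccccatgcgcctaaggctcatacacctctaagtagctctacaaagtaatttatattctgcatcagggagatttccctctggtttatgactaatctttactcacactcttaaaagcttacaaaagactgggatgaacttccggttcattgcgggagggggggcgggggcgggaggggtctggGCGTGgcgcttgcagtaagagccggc
Cbr1: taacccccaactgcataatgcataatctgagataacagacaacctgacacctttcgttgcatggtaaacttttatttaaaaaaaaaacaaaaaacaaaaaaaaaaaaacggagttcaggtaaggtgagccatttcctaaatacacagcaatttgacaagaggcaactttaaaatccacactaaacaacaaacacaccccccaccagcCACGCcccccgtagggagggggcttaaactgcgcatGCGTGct
Aldh3a2: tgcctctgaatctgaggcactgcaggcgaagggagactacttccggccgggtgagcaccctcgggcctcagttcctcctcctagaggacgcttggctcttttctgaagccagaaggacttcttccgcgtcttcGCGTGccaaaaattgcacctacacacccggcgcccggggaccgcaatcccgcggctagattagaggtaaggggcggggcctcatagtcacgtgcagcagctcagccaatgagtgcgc
Gsta3 and Gstm5 hold the antioxidant core, and the other 4 the xenobiotic core, which Cbr1 holds at 2 places, before the later of its annotated starts. Gstm5 also holds the xenobiotic core at 2 places, and 1 of them is the end of its antioxidant core, so those matches overlap.

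Glutathione S-transferases couple glutathione to electrophiles. Of 21 members 20 were tested, and 18 fell, none rose and 2 did not pass, with a median log2 change of -1.33; the median was -1.07 without scaling factors, where 15 of the 18 falls remained past the threshold and Gstm5, Gstk1 and Gstz1 did not. The summed level of the family was 2805 ± 566 RPM (SD, n = 3) at room temperature and 630.0 ± 62.2 RPM in the cold, 4.45-fold lower. All 7 mu class members (Gstm, side by side on chromosome 3), all 4 alpha class, both pi class and both omega class members fell, while 1 of the 3 tested theta class members did.

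Gsto1 (chr19:47854970-47864790), an omega class enzyme that reduces dehydroascorbate and mixed disulfides more than it conjugates, had the largest fall of all tested members on the log2(RPM + 0.5) scale. Its level was 114, 129 and 70.1 scaled RPKM at room temperature and 6.28, 4.78 and 6.08 in the cold. Room temperature replicate 3 was the lowest of its group and still over 10 times any cold library, and the mean was 18.3-fold lower in cold (log2 change -4.14 ± 0.23 (SE), limma adjusted p = 4.8e-05). As a ratio of group means, Ugt2b34 (22.8-fold) and Aldh3b2 (20.1-fold) fell further, both with few cold reads. It made up 36.5% of the summed family level at room temperature and 8.91% in the cold. Its neighbour Gsto2 fell less, by 3.99-fold (log2 change -1.48 ± 0.17 (SE), limma adjusted p = 1.9e-04). The alpha class member Gsta4 (chr9:78182774-78209349), which prefers 4-hydroxynonenal, an aldehyde of lipid peroxidation, stood at 10.8, 10.9 and 8.12 scaled RPKM at room temperature and 1.79, 1.71 and 1.66 in the cold. All cold libraries were within a narrow band, and the groups did not overlap (log2 change -2.51 ± 0.13 (SE), limma adjusted p = 4.8e-05).

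Gstm1 (chr3:108012255-108017973), a mu class enzyme, had the highest scaled RPKM (per gene span) of the family, 130.4, 156 and 99.97 scaled RPKM at room temperature and 38.5, 22.6 and 32.6 in the cold. The cold libraries varied more here than in Gsta4 but lay below every room temperature library (log2 change -2.05 ± 0.23 (SE), limma adjusted p = 2.4e-04). It shares 23.2% of its 50-base stretches with another gene, so its level is uncertain. The pi class pair is less certain still, since Gstp1 and Gstp2 share 62.3% and 72.6% of theirs. Gstp2 was at 9.07, 7.59 and 5.77 scaled RPKM at room temperature and 1.47, 1.34 and 0.979 in the cold (log2 change -2.48 ± 0.20 (SE), limma adjusted p = 6.8e-05), and Gstp1 fell by 3.27-fold (log2 change -1.69 ± 0.15 (SE), limma adjusted p = 7.3e-05).

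An antioxidant core was found in the windows of 7 members, among them both Gst genes whose windows are printed for it. Gstm5, known from brain and testis, was at 2.34, 2.01 and 2.26 scaled RPKM at room temperature and 1.54, 1.22 and 1.15 in the cold (log2 change -0.69 ± 0.16 (SE), limma adjusted p = 0.005), and without scaling factors its log2 change was -0.40 with an adjusted p of 0.061. Gsta3 was at 9.01, 9.34 and 8.19 scaled RPKM at room temperature and 4.00, 3.74 and 4.97 in the cold (log2 change -1.07 ± 0.13 (SE), limma adjusted p = 2.4e-04). Of the other 5 members with this core, Gstm7 (log2 change -1.96 ± 0.21 (SE), limma adjusted p = 1.5e-04) and Aldh9a1 (log2 change -0.63 ± 0.09 (SE), limma adjusted p = 7.1e-04) fell, Akr1c19 was called higher, Aldh1a2 did not pass and Akr1cl was not tested. The smallest called falls of the family were Gstz1, an isomerase of tyrosine breakdown (log2 change -0.45 ± 0.10 (SE), limma adjusted p = 0.0043), and Gstk1, a transferase of mitochondria and peroxisomes (log2 change -0.64 ± 0.12 (SE), limma adjusted p = 0.0021).

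Theta class enzymes, which handle small halogenated compounds and epoxides, went apart from each other. Gstt3 was at 6.13, 6.44 and 5.87 scaled RPKM at room temperature and 3.11, 3.23 and 3.19 in the cold, with no overlap (log2 change -0.94 ± 0.09 (SE), limma adjusted p = 9.1e-05). Gstt2, in the same cluster on chromosome 10, was at 3.61, 3.99 and 4.21 scaled RPKM at room temperature and 4.18, 3.88 and 3.42 in the cold, and the groups overlapped. The log2 change of Gstt2 was -0.04 ± 0.11 (SE), limma adjusted p = 0.75, and 0.28 without scaling factors, so it has no settled sign. Gstt1, between them on the chromosome, was likewise not past the threshold (log2 change -0.21 ± 0.14 (SE), limma adjusted p = 0.22; 0.11 without scaling factors). The reads of Gstt2 per read of Gstt3 were 0.509, 0.536 and 0.620 at room temperature and 1.16, 1.04 and 0.927 in the cold, a ratio that no scaling moves and in which the groups did not overlap.

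**Figure D2:**
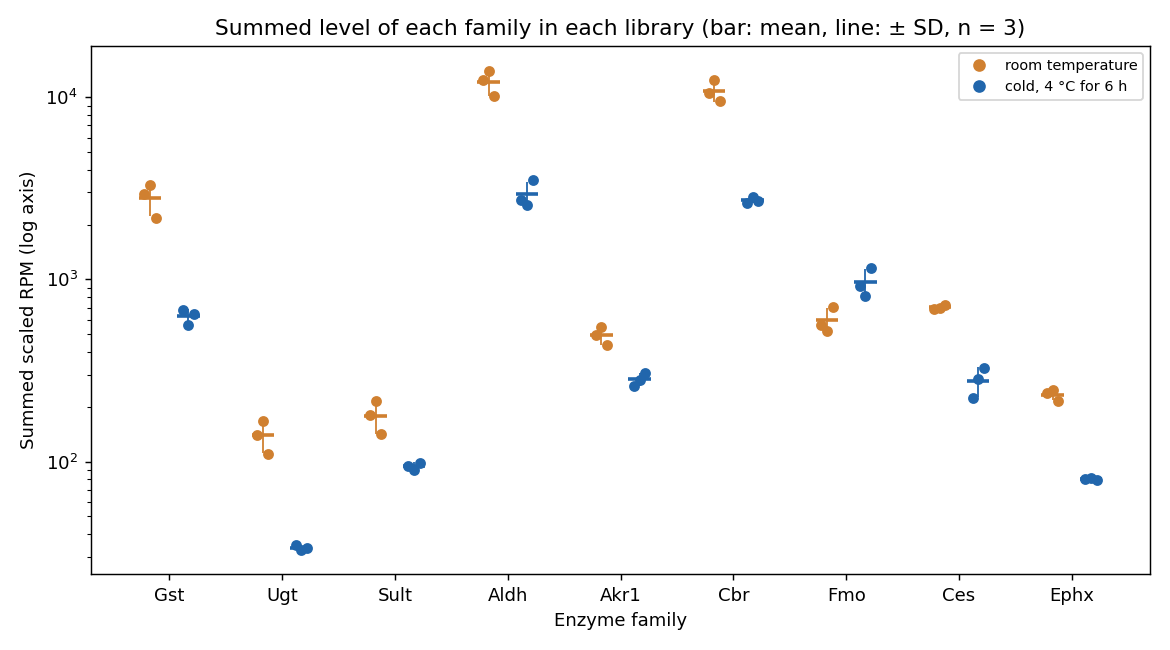
Summed scaled RPM of each family (log y axis) in each library, with Ugt1a and Ugt2a1/Ugt2a2 counted once; points are libraries, horizontal bars group means and vertical lines ± SD (n = 3). In 8 families every room temperature library lies above every cold library; the Fmo family alone is the other way round, 595 ± 98.2 against 964 ± 179 RPM.

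UDP-glucuronosyltransferases attach glucuronic acid to bilirubin, steroids and xenobiotics in the endoplasmic reticulum. All 13 tested rows of 16 fell, but they stand for far fewer measurements, since 9 are Ugt1a rows. Ugt2a1, Ugt2a2 and Ugt2b34 passed the read filter through the room temperature group only, so they could hardly be tested without being lower. The cluster ends at a common 3′ end, and the row with the shortest span and highest scaled RPKM, Ugt1a1 (chr1:88211959-88218997, the bilirubin enzyme), was at 18.4, 22.5 and 14.5 scaled RPKM at room temperature and 4.72, 4.53 and 4.58 in the cold. The groups did not overlap, and the mean was 4.01-fold lower (log2 change -1.96 ± 0.16 (SE), limma adjusted p = 6.1e-05). An antisense transcript covers 41.5% of the Ugt1a1 exon bases, and no source names the strand setting of the counting. The 9 log2 changes lay between -2.02 for Ugt1a6a and -1.96 for Ugt1a1, and the rows do not say which first exon was used.

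Outside that cluster the levels were low. Ugt8a (chr3:125865271-125938619) makes galactosylceramide, a myelin lipid. It stood at 0.0950, 0.0677 and 0.0958 scaled RPKM at room temperature and 0.0169, 0.00895 and 0.0170 in the cold, with every cold library under every room temperature one (log2 change -2.15 ± 0.23 (SE), limma adjusted p = 1.6e-04). Ugt2b34 was at 0.192, 0.140 and 0.0547 scaled RPKM at room temperature and 0.00978, 0 and 0.00716 in the cold, where the cold values are a handful of reads and 1 library has none (log2 change -2.09 ± 0.35 (SE), limma adjusted p = 0.0013). Ugt2a1 and Ugt2a2, olfactory epithelium enzymes that share 1771 exon bases, gave log2 changes of -0.89 and -0.89, limma adjusted p = 0.0088 and 0.0078.

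Sulfotransferases move sulfate from the carrier PAPS to phenols, steroids and catecholamines. Of 12 members 6 were tested: 3 fell, 2 rose and 1 did not pass, where 35.0% of all tested genes fell and 35.5% rose. Sult1d1 (chr5:87554645-87569027), a mouse enzyme that sulfates dopamine and other catechols and whose window shown above holds a xenobiotic core, was at 10.9, 13.1 and 7.49 scaled RPKM at room temperature and 1.77, 1.37 and 1.80 in the cold. It fell 6.37-fold with no overlap (log2 change -2.62 ± 0.21 (SE), limma adjusted p = 7.3e-05). Sult1a1 (chr7:126672865-126676432), the main phenol sulfotransferase, did the opposite, at 4.36, 5.65 and 7.07 scaled RPKM at room temperature and 14.2, 14.7 and 15.7 in the cold. Room temperature replicate 3 was the highest of its group but under the lowest cold library by a wide margin, and the mean was 2.61-fold higher in cold (log2 change 1.39 ± 0.17 (SE), limma adjusted p = 2.5e-04).

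The exchange between these genes changed the make-up of the family. Sult1d1 held 84.4% of its summed level at room temperature and 25.1% in the cold, while the sum fell from 179 ± 37.1 to 94.5 ± 4.47 RPM, 1.89-fold and 1.5-fold without scaling factors. The reads of Sult1a1 per read of Sult1d1 were 0.0995, 0.107 and 0.234 at room temperature and 1.99, 2.68 and 2.16 in the cold, so the ratio was under 1 in every room temperature library and above 1 in every cold library. Sult5a1 (chr8:123140192-123158315), a less studied member, also rose. It was at 0.106, 0.0268 and 0.264 scaled RPKM at room temperature and 0.884, 0.857 and 0.818 in the cold. Its room temperature libraries were spread about 10-fold, all under the cold ones, which lay close together (log2 change 2.77 ± 0.56 (SE), limma adjusted p = 0.0044).

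The other tested sulfotransferases had few reads. Sult1b1, a thyroid hormone sulfotransferase, was lower (log2 change -1.34 ± 0.31 (SE), limma adjusted p = 0.0058), and so was Sult4a1, a brain form (log2 change -0.80 ± 0.22 (SE), limma adjusted p = 0.011). Sult2b1, which sulfates cholesterol, was at 0.0435, 0.0560 and 0.0368 scaled RPKM at room temperature and 0.0338, 0.0304 and 0.0269 in the cold. Its groups did not overlap, yet it missed the threshold (log2 change -0.46 ± 0.19 (SE), limma adjusted p = 0.062) and passed without room temperature replicate 3, where the adjusted p was 0.024.

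**Figure D3:**
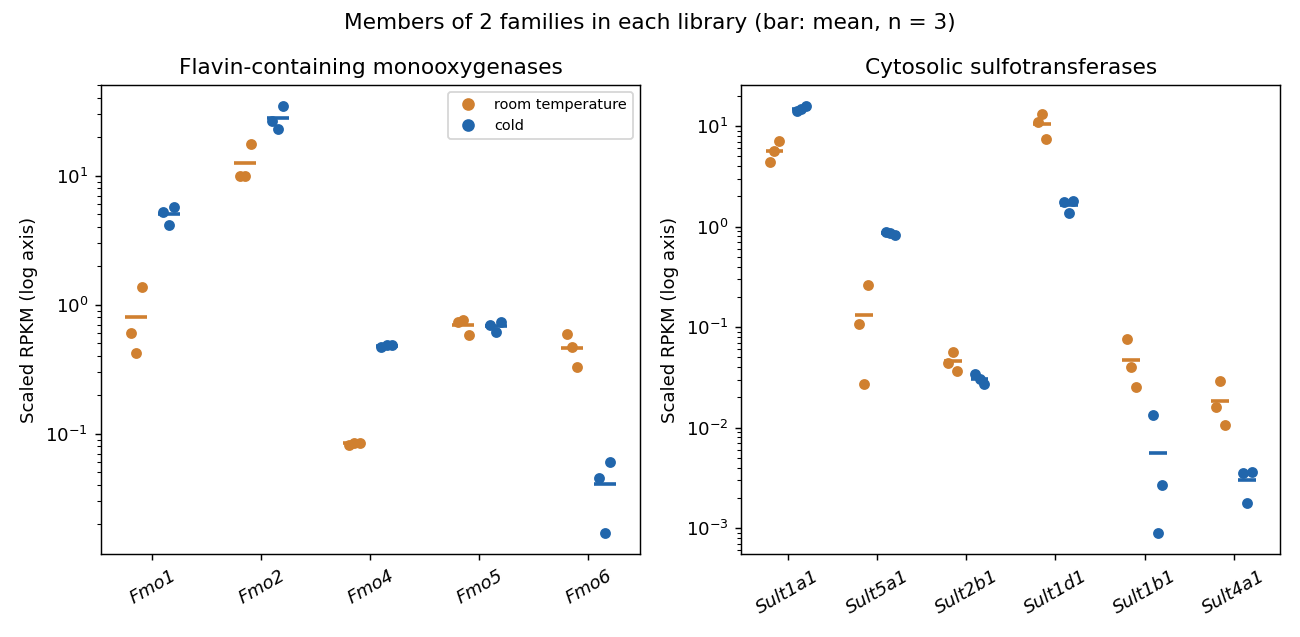
Scaled RPKM in each library (log y axis) of 5 Fmo members and the 6 tested Sult members; points are libraries and bars group means (n = 3). Fmo1, Fmo2, Fmo4, Sult1a1 and Sult5a1 lie higher in all 3 cold libraries, Fmo6 and Sult1d1 lie lower, and Fmo5 overlaps, with a change of -0.02 here and 0.30 without scaling factors.

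Aldehyde dehydrogenases oxidise aldehydes to acids. Of 21 members 19 were tested: 14 fell, 1 rose and 4 did not pass, with a median log2 change of -1.13. The summed level went from 12164 ± 1955 to 2933 ± 509 RPM, 4.15-fold lower. Aldh1a1 (chr19:20492715-20643465), which turns retinal into retinoic acid and also clears lipid aldehydes, made 86.6% of that sum at room temperature and 79.7% in the cold. Its level was 71.4, 81.0 and 57.3 scaled RPKM at room temperature and 14.1, 13.0 and 19.4 in the cold, with no overlap (log2 change -2.18 ± 0.20 (SE), limma adjusted p = 8.5e-05). Per kilobase of exon it was the second most abundant member, at 2135 RPM at room temperature and 474 in the cold. Aldh1a7 (chr19:20692953-20727562), its rodent paralogue with little activity on retinal, was at 4.80, 5.42 and 5.50 scaled RPKM at room temperature and 1.45, 1.72 and 2.09 in the cold (log2 change -1.58 ± 0.14 (SE), limma adjusted p = 8.6e-05).

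On the log2(RPM + 0.5) scale, the largest falls of the family were in class 3 enzymes. Aldh3a1 (chr11:61207537-61218421), known from the cornea and from tumours as an enzyme of aromatic and lipid aldehydes, was at 16.2, 17.8 and 10.9 scaled RPKM at room temperature and 1.48, 0.931 and 1.26 in the cold. The lowest room temperature library was over 7 times the highest cold one (log2 change -3.56 ± 0.23 (SE), limma adjusted p = 5.2e-05). Aldh3b1 (chr19:3913491-3929808), which oxidises long-chain lipid aldehydes at membranes, was at 18.1, 21.8 and 13.9 scaled RPKM at room temperature and 3.23, 2.69 and 2.61 in the cold (log2 change -2.63 ± 0.17 (SE), limma adjusted p = 5.2e-05). Its neighbour Aldh3b2 was at 0.503, 0.491 and 0.275 scaled RPKM at room temperature and 0.0498, 0 and 0.0134 in the cold, and shares 24.2% of its 50-base stretches with another gene (log2 change -2.69 ± 0.31 (SE), limma adjusted p = 2.1e-04).

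The exception was Aldh3a2 (chr11:61223417-61267464), the fatty aldehyde dehydrogenase of the endoplasmic reticulum, which lies next to Aldh3a1 on chromosome 11 on the other strand. It was at 1.02, 1.12 and 0.992 scaled RPKM at room temperature and 1.36, 1.37 and 1.54 in the cold. The rise was small, 1.36-fold, with all cold libraries above all others (log2 change 0.44 ± 0.10 (SE), limma adjusted p = 0.0043). The reads of Aldh3a2 per read of Aldh3a1 were 0.255, 0.253 and 0.369 at room temperature and 3.71, 5.96 and 4.93 in the cold.

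Members of mitochondrial and amino acid metabolism had smaller called falls than those class 3 genes. Among them Aldh1b1 came nearest, with a 5.81-fold fall (log2 change -1.98 ± 0.40 (SE), limma adjusted p = 0.0035). Its room temperature libraries varied, at 1.55, 0.494 and 1.57 scaled RPKM, against 0.170, 0.214 and 0.239 in the cold. Aldh2, the main enzyme of acetaldehyde, was at 24.0, 24.4 and 20.9 scaled RPKM at room temperature and 9.39, 8.50 and 7.81 in the cold (log2 change -1.43 ± 0.11 (SE), limma adjusted p = 6.3e-05). Aldh18a1, of proline synthesis, fell by 3.69-fold, and Aldh4a1, of proline breakdown, by 2.55-fold, although 35.5% of the 50-base stretches of Aldh4a1 recur in an overlapping gene model. Aldh5a1, Aldh7a1 and Aldh9a1, of the breakdown of the transmitter GABA, lysine and polyamines, fell by 2.28-fold, 1.60-fold and 1.57-fold. Aldh6a1, of valine breakdown, did not pass and its groups overlapped (log2 change -0.16 ± 0.10 (SE), limma adjusted p = 0.2; 0.17 without scaling factors).

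Aldh1a2 (chr9:71215789-71296243), a retinoic acid-making enzyme typical of mesothelium, had 1 library far from the others. It was at 0.0195, 0.00933 and 0.259 scaled RPKM at room temperature and 0.0187, 0.0161 and 0.0197 in the cold. Room temperature replicate 3 was over 10 times every other library, and without it the log2 change was 0.27 in place of -0.96. The sum of 8 mesothelial markers, a list added after values were seen, was 115 and 106 RPM in replicates 1 and 2, 316 in replicate 3 and 42.7 to 52.3 in the cold. Its part in the level of Aldh1a2 was not tested.

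Aldo-keto reductases use NADPH to reduce aldehydes and ketones to alcohols. Of 13 members 11 were tested: 8 fell, 2 rose and 1 did not pass, with a median log2 change of -0.89. The summed level fell less than that of most families, from 493 ± 57.0 to 283 ± 22.7 RPM, or 1.74-fold. Akr1a1 (chr4:116636510-116651680), the general aldehyde reductase that in mice also serves vitamin C synthesis, made 52.2% of that sum at room temperature and 47.6% in the cold. It was at 16.6, 18.6 and 15.7 scaled RPKM at room temperature and 8.38, 9.10 and 9.19 in the cold, a 1.91-fold fall (log2 change -0.93 ± 0.10 (SE), limma adjusted p = 1.7e-04). The largest fall on the log2(RPM + 0.5) scale was in Akr1b8 (chr6:34354119-34368463), a mouse reductase of lipid aldehydes and retinal with a xenobiotic core in the window shown above, at 4.79, 5.94 and 3.20 scaled RPKM at room temperature and 0.550, 0.685 and 0.448 in the cold (log2 change -2.95 ± 0.24 (SE), limma adjusted p = 7.9e-05). Its group means differed 8.27-fold, against 14.6-fold for Akr1c12 and 13.7-fold for Akr1c18, both with few cold reads. The neighbours of Akr1b8 on chromosome 6 fell less, Akr1b3 (aldose reductase) by 1.79-fold and Akr1b10 by 1.81-fold.

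The cluster on chromosome 13 was mixed. Akr1c12 and Akr1c13, which share 28.6% of their 50-base stretches with another gene, had log2 changes of -2.02 ± 0.20 (SE) and -1.51 ± 0.15 (SE), limma adjusted p = 1.2e-04 and 1.2e-04. Akr1c18, which inactivates progesterone, was also lower (log2 change -1.70 ± 0.38 (SE), limma adjusted p = 0.0054). Akr1c14, a reductase of steroids, was at 2.08, 2.45 and 2.02 scaled RPKM at room temperature and 2.06, 2.23 and 2.86 in the cold, and its groups overlapped (log2 change 0.12 ± 0.14 (SE), limma adjusted p = 0.48). Without scaling factors its log2 change was 0.45, with an adjusted p of 0.020. The 2 members called higher had few reads. Akr1b7 passed the read filter through the cold group only (log2 change 0.47 ± 0.15 (SE), limma adjusted p = 0.023), and with 2 RPM added its log2 change was 0.14 with an adjusted p of 0.055. The other was Akr1c19 (log2 change 0.87 ± 0.30 (SE), limma adjusted p = 0.032), whose groups overlapped and whose adjusted p was 0.059 with the replicate number as a block. Leaving out room temperature replicate 1 or 2, or cold replicate 1 or 2, also ended the Akr1c19 call, with an adjusted p of 0.069 to 0.12. Neither met the rule for named genes, and both are given here because the count is small.

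Carbonyl reductases reduce quinones and ketones. All 4 members fell, with a median log2 change of -1.97. Cbr2 (chr11:120729489-120732114), a mitochondrial reductase known from mouse lung, was the most abundant member of all 9 families, with 7980 RPM per kilobase of exon at room temperature and 2004 in the cold. It was at 3947, 4608 and 3543 scaled RPKM at room temperature and 974, 1058 and 1007 in the cold, and the fall was 3.98-fold (log2 change -1.99 ± 0.14 (SE), limma adjusted p = 5.2e-05). Cbr2 alone was 37.6% of the summed level of all members at room temperature and 33.2% in the cold. Cbr1 (chr16:93605853-93610505), the broad cytosolic form with 2 xenobiotic cores in the window shown above, was at 38.4, 45.1 and 30.9 scaled RPKM at room temperature and 10.2, 10.03 and 8.92 in the cold (log2 change -1.95 ± 0.15 (SE), limma adjusted p = 5.6e-05). The reads of Cbr1 per read of Cbr2 stayed between 0.0155 and 0.0185 in all 6 libraries, so the ratio overlapped between groups while both levels fell. Cbr3, next to Cbr1 on chromosome 16, fell by 4.56-fold (log2 change -2.11 ± 0.20 (SE), limma adjusted p = 1.2e-04), and Cbr4, of mitochondrial fatty acid synthesis, by 2.22-fold (log2 change -1.04 ± 0.15 (SE), limma adjusted p = 6.2e-04).

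Flavin-containing monooxygenases add oxygen to nitrogen and sulfur atoms of drugs and amines. This was the only family whose summed level was higher in the cold, 595 ± 98.2 RPM at room temperature and 964 ± 179 RPM in the cold, 1.62-fold. Fmo2 made 51.5% of that sum at room temperature and 71.0% in the cold, so the sum follows mostly this 1 gene. All 6 members were tested: 3 rose, 2 fell and 1 did not pass, where 35.5% of all tested genes rose and 35.0% fell. Fmo2 (chr1:162874317-162898726), the form known as the main one of lung in most mammals, was at 10.02, 9.95 and 17.7 scaled RPKM at room temperature and 26.5, 23.1 and 34.5 in the cold. Room temperature replicate 3 was well above replicates 1 and 2 and still under every cold library, and the mean was 2.23-fold higher (log2 change 1.19 ± 0.26 (SE), limma adjusted p = 0.0044). Fmo1 (chr1:162829561-162866610), a broad form found in mouse lung and kidney, was at 0.604, 0.421 and 1.38 scaled RPKM at room temperature and 5.22, 4.12 and 5.76 in the cold, with replicate 3 again the highest of its group (log2 change 2.79 ± 0.42 (SE), limma adjusted p = 0.0012). Fmo4 (chr1:162793188-162813972) was nearly the same in all replicates of a group, at 0.0824, 0.0852 and 0.0842 scaled RPKM at room temperature and 0.469, 0.485 and 0.485 in the cold, which is 5.72-fold higher (log2 change 2.22 ± 0.13 (SE), limma adjusted p = 4.8e-05).

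Fmo6 (chr1:162916551-162937515), thought in humans to make no working enzyme, lies in the same cluster of chromosome 1 and on the same minus strand as the 3 that rose, in the order Fmo4, Fmo1, Fmo2 and Fmo6 from low to high coordinates. It was at 0.595, 0.469 and 0.331 scaled RPKM at room temperature and 0.0453, 0.0170 and 0.0600 in the cold, and every cold library was under every room temperature one (log2 change -2.95 ± 0.31 (SE), limma adjusted p = 1.6e-04). Fmo5, on chromosome 3, was at 0.731, 0.755 and 0.586 scaled RPKM at room temperature and 0.697, 0.608 and 0.736 in the cold and its groups overlapped (log2 change -0.02 ± 0.13 (SE), limma adjusted p = 0.91). Without scaling factors it was called higher, with a log2 change of 0.30 and an adjusted p of 0.048.

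Carboxylesterases cut esters and amides of drugs and lipids, and all 15 members lie on chromosome 8. Of the 9 tested, 5 fell, 1 rose and 3 did not pass. The family 1 genes made the called falls, 5 of 6 tested, and 0 of the 3 tested family 2 genes were called lower. Of those, Ces2b missed the threshold narrowly (log2 change -0.41, limma adjusted p = 0.0503). It was called lower by limma with no read filter (adjusted p = 0.020), with deposited RPKM plus 0.01 (0.049) and without the trend and robust options (0.017). Ces1d (chr8:93166068-93197838), a triacylglycerol hydrolase of lung, liver and fat, held 90.0% of the summed level at room temperature and 91.2% in the cold. It was at 19.2, 19.8 and 20.9 scaled RPKM at room temperature and 6.26, 8.28 and 9.39 in the cold, 2.5-fold lower, and room temperature replicate 3 was here the highest of its group (log2 change -1.34 ± 0.15 (SE), limma adjusted p = 2.1e-04). Also lower, each with groups apart, were Ces1f (log2 change -2.08 ± 0.21 (SE), limma adjusted p = 1.4e-04), Ces1h (log2 change -1.80 ± 0.26 (SE), limma adjusted p = 6.3e-04), Ces1e (log2 change -1.74 ± 0.14 (SE), limma adjusted p = 6.1e-05) and Ces1b (log2 change -1.22 ± 0.28 (SE), limma adjusted p = 0.0058).

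Ces1g was at 0.148, 0.0863 and 0.282 scaled RPKM at room temperature and 0.135, 0.0939 and 0.183 in the cold, with overlap (log2 change -0.20 ± 0.41 (SE), limma adjusted p = 0.68), and Ces2g at 0.674, 0.404 and 0.681 scaled RPKM at room temperature and 0.645, 0.437 and 0.574 in the cold, also with overlap (log2 change -0.06 ± 0.23 (SE), limma adjusted p = 0.83). Both turned sign without scaling factors, to 0.093 and 0.23. Ces2e was the 1 called higher (log2 change 0.63 ± 0.22 (SE), limma adjusted p = 0.035), at few reads, and it missed the threshold when any of 5 libraries was left out, with adjusted p of 0.067 to 0.12; it did not meet the rule for named genes and is given because it is the only rise.

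Epoxide hydrolases open epoxides to diols. Of 4 members 3 fell and 1 rose. Ephx1 (chr1:180976210-181020904), the microsomal enzyme of xenobiotic epoxides, held 94.8% of the summed family level at room temperature and 95.3% in the cold. It was at 5.02, 5.24 and 4.59 scaled RPKM at room temperature and 1.69, 1.75 and 1.70 in the cold. Its replicates differed little and the fall was 2.89-fold (log2 change -1.52 ± 0.09 (SE), limma adjusted p = 4.8e-05). Ephx2 (chr14:66084374-66124500), the soluble enzyme of fatty acid epoxides, was at 0.144, 0.0653 and 0.0989 scaled RPKM at room temperature and 0.0382, 0.0125 and 0.0206 in the cold (log2 change -1.67 ± 0.34 (SE), limma adjusted p = 0.003). Ephx4, of unsettled substrate, fell by 4.60-fold (log2 change -1.90 ± 0.19 (SE), limma adjusted p = 1.1e-04). Ephx3, an enzyme of lipid epoxides in skin, was the exception, at 0.104, 0.0502 and 0.0673 scaled RPKM at room temperature and 0.202, 0.213 and 0.220 in the cold (log2 change 0.91 ± 0.18 (SE), limma adjusted p = 0.0027); it fell outside the rule for named genes and was chosen after its values were seen.

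**Figure D4:**
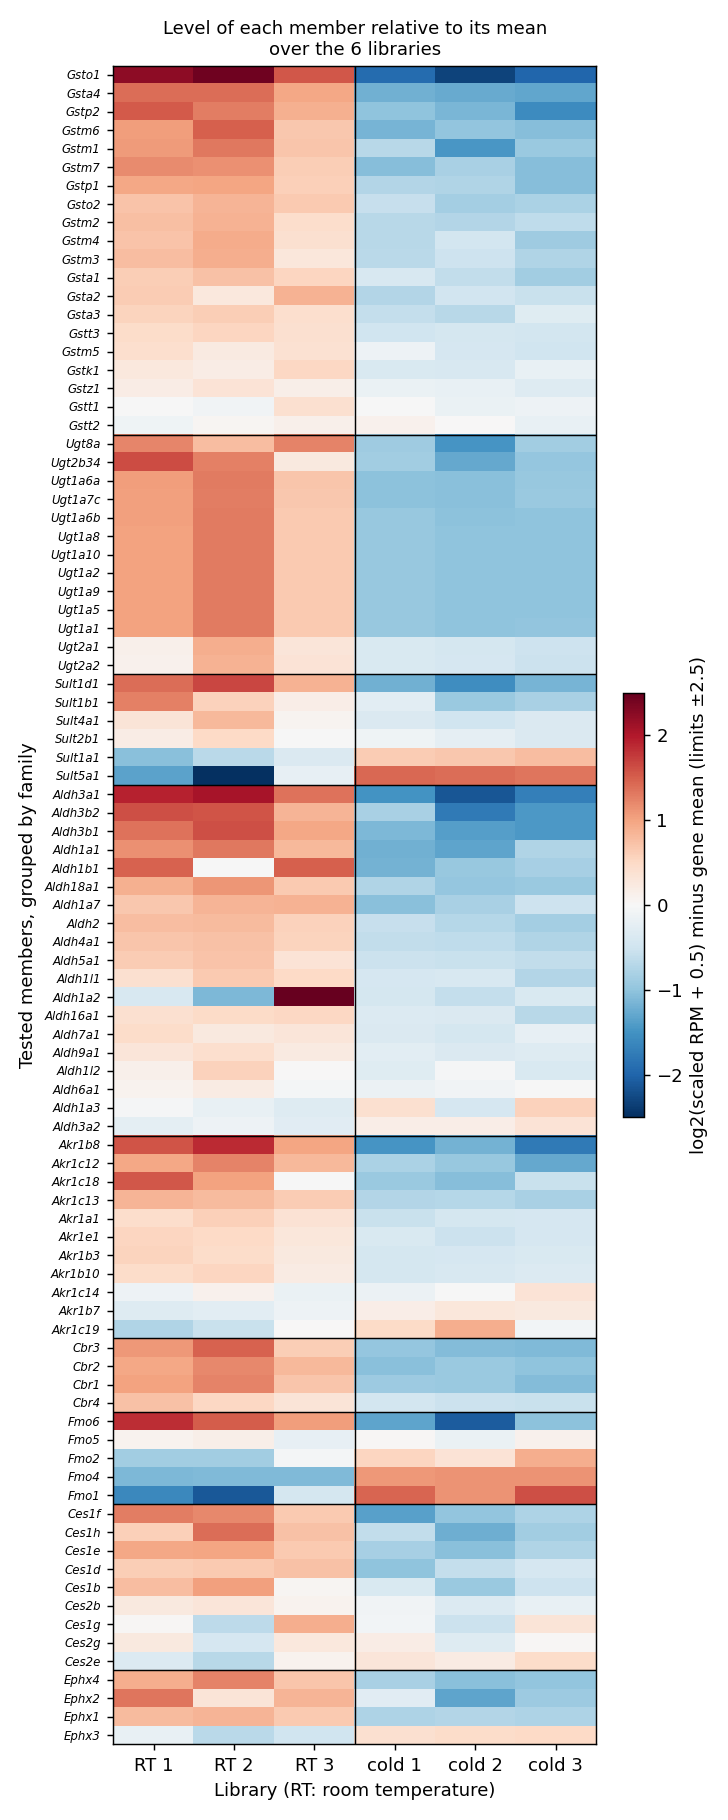
Level of tested members (rows, grouped by family) in each of the 6 libraries (columns), as log2(scaled RPM + 0.5) minus the gene's mean over the libraries; red is above and blue below the mean, with colours capped at 2.5. Most rows are red at room temperature and paler in replicate 3; Sult1a1, Sult5a1, Fmo1, Fmo2 and Fmo4 are the other way round.

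Over all families the summed level, with the shared clusters counted once, was 28275, 32065 and 24110.4 RPM at room temperature and 7658, 7528 and 8867 RPM in the cold. The groups did not overlap and the mean was 3.51-fold lower, or 2.79-fold without scaling factors. The members took 2.504% of all reads at room temperature and 0.898% in the cold. Cbr2 and Aldh1a1 made most of this sum, and after them the order per kilobase of exon at room temperature was Gsto1 (507 RPM), Gstm1 (499.7), Ces1d (267), Gsta4 (209), Aldh3b1 (143), Aldh2 (125) and Ephx1 (113). Gsto1 and Gstm1 did not differ beyond their spread at room temperature. In the cold Gsto1 was at 27.8 RPM per kilobase of exon, under Gstm1 (121), Ces1d (107), Aldh2 (46.5), Ephx1 (39.25) and Gsta4 (36.1). Of the genes in that order only Aldh3b1 (22.7) was below it.

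Genes that supply the co-substrates were lower too. Of 16 genes for glutathione, UDP-glucuronate, active sulfate and NADPH supply, all were tested, 13 fell and 1 rose, with a median log2 change of -1.11. Without scaling factors 9 fell and 2 rose, and Ugdh, which makes UDP-glucuronate, turned from -0.28 to 0.04. The glutathione synthesis subunits parted: the regulatory subunit Gclm was at 4.26, 4.88 and 3.04 scaled RPKM at room temperature and 1.32, 1.47 and 1.40 in the cold (log2 change -1.50 ± 0.17 (SE), limma adjusted p = 2.0e-04). The catalytic subunit Gclc was at 4.15, 4.25 and 3.01 scaled RPKM at room temperature and 4.06, 5.62 and 3.84 in the cold and did not pass (log2 change 0.24 ± 0.19 (SE), limma adjusted p = 0.28), but was called higher without scaling factors (0.57, adjusted p = 0.018). Idh1 (-1.70) and Me1 (-1.48), which make NADPH in the cytosol, Pgd (-1.32), an NADPH-making step of the pentose phosphate path, and Tkt (-1.93), of the branch of that path that makes none, were lower by these log2 changes, each past the threshold. G6pdx, the first NADPH-making step of the path, fell less (log2 change -0.58 ± 0.15 (SE), limma adjusted p = 0.01), and without scaling factors its log2 change was -0.26 with an adjusted p of 0.12.

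The enzymes that make active sulfate (PAPS) moved in opposite directions. Papss1 was at 0.797, 0.781 and 0.648 scaled RPKM at room temperature and 0.277, 0.243 and 0.267 in the cold (log2 change -1.47 ± 0.11 (SE), limma adjusted p = 5.7e-05). Papss2 was at 0.145, 0.0642 and 0.136 scaled RPKM at room temperature and 0.425, 0.310 and 0.382 in the cold (log2 change 1.70 ± 0.30 (SE), limma adjusted p = 0.0018). The groups did not overlap in either gene, and Papss2 was the 1 gene of the list that rose.

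Of 20 other conjugation, alcohol and quinone enzymes, 14 fell, 2 rose and 4 did not pass, with a median log2 change of -0.70; without scaling factors 11 fell and 2 rose. On the log2(RPM + 0.5) scale, the largest falls were Adh7, a retinol and ethanol dehydrogenase of epithelia (log2 change -3.17 ± 0.24 (SE), limma adjusted p = 6.5e-05), Por, the electron donor of microsomal cytochromes P450 (log2 change -2.34 ± 0.20 (SE), limma adjusted p = 8.3e-05), and Mgst1, a membrane-bound glutathione transferase (log2 change -2.20 ± 0.13 (SE), limma adjusted p = 4.8e-05). The rises were Tpmt, a thiol methyltransferase at few reads (log2 change 0.70 ± 0.24 (SE), limma adjusted p = 0.029), and Inmt, which methylates amines and thioethers. Inmt was at 34.3, 13.6 and 86.0 scaled RPKM at room temperature and 174, 151 and 161 in the cold (log2 change 2.24 ± 0.61 (SE), limma adjusted p = 0.016), and it is also in the fibroblast marker list. Nqo1, a quinone reductase and known target of NRF2, was 2.22-fold lower (log2 change -1.08 ± 0.15 (SE), limma adjusted p = 4.4e-04).

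Of 14 listed regulators of these genes 13 were tested: 7 rose and 4 fell, where 35.5% of all tested genes rose and 35.0% fell, and the same counts held without scaling factors. Nfe2l2, which encodes NRF2, was at 4.02, 3.61 and 4.45 scaled RPKM at room temperature and 3.45, 3.75 and 4.23 in the cold and its groups overlapped (log2 change -0.08 ± 0.12 (SE), limma adjusted p = 0.57). Bach1, a repressor at antioxidant elements, was at 0.511, 0.469 and 0.571 scaled RPKM at room temperature and 1.25, 1.30 and 1.42 in the cold (log2 change 1.33 ± 0.11 (SE), limma adjusted p = 6.4e-05). The small MAF genes, partners of both, were higher, Mafk (1.08), Mafg (0.90) and Maff (0.47), and Keap1, the inhibitor of NRF2, was lower (-0.64), each past the threshold. Ahr (0.89) and Arnt (0.81) rose, and Nr1i2, the pregnane X receptor, fell (log2 change -2.43 ± 0.26 (SE), limma adjusted p = 1.7e-04). These are RNA levels and say nothing of activity.

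Markers of airway cells moved with the enzymes. All 14 club and secretory cell genes fell, from a summed 73439 to 98420 RPM at room temperature to 17383 to 20691 RPM in the cold, as did all 13 tested ciliated cell genes (2210 to 3474 and 459 to 618 RPM). Of 7 tested basal and upper airway genes 6 fell (469 to 1249 and 12.5 to 25.3 RPM), and Acan was at 0 in all libraries. The other way went 8 of 10 alveolar type 1 genes with 1 lower (715 to 1182 and 3139 to 3334 RPM), 8 of 10 alveolar type 2 genes (4325 to 7142 and 12673 to 18044 RPM) and all 12 endothelial genes (87.4 to 468 and 2324 to 2765 RPM). In room temperature replicate 3, the club list was the lowest of its group, and the alveolar type 1, type 2 and endothelial lists were the highest. Their part in the enzyme results was not tested.

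Other tissues were looked for as well. Cardiomyocyte genes were lower in 9 of 10 (507 to 1799 and 175 to 330.3 RPM) and adipocyte genes in 8 of 9 tested (168 to 303 and 38.5 to 65.5 RPM). Alveolar macrophage genes were higher in 8 of 10 and lower in 2 (136 to 161 and 175 to 225 RPM), and Car4, among the higher ones, is also in the endothelial list. Of 10 fibroblast genes 4 were higher and 4 lower, where 35.5% of all tested genes rose and 35.0% fell. Their sum, which includes Inmt, was higher in the cold (455 to 1079 and 1303 to 1537 RPM), while their median log2 change was -0.39. Of the hepatocyte genes, which matter here because liver is rich in these enzymes, 3 of 10 had enough reads, 1 of them lower (20.45 to 42.0 and 5.90 to 10 RPM); that was Cyp2e1, a cytochrome P450 also made in lung. These lists' part in the enzyme results was not tested.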

How the data were processed

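The authors deposited, for each library, an RPKM value of every gene with 3 decimals, beside their log2 fold change, p-value and q-value. Per the submitters' processing notes reads were placed on mm10; aligner, counter and strand setting: not given in the sources used here. Libraries were made from total RNA with the NEBNext Ultra II kit, per the labels' protocols. RPKM times gene span (GENCODE M21, introns included) fell on whole multiples of 1 step in each library (phase coherence, which is 1 for exact multiples, 0.804 to 0.842, against at most 0.0804 with exon length). That step gave the depths, and 83.0% to 86.3% of low read numbers were whole within 0.1. Columns of per-library values that match no sample number 0, and 92 rows without a span were not tested.

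Because the values are RPKM and not counts, limma 3.58.1 (R 4.3.3; trend and robust options, group as the only term) was fitted to log2(RPM + 0.5), with RPM equal to RPKM times span in kilobases over a trimmed mean of M values factor per library (0.857 to 0.950 at room temperature and 1.12 to 1.13 in the cold). This scale understates changes of genes near 0.5 RPM. Genes needed the equivalent of 10 reads in 3 libraries and 15 in all; two-sided p-values were adjusted by Benjamini-Hochberg over 15236 genes. On simulated data with 14891 genes, the cold against room temperature test recovered 85.4% of log2 changes of -1 and 93.6% of changes of 1, with 7 false calls. Those counts were drawn independently with the same relative spread for every gene, and only 47 to 49 genes were changed at each size. In the data 70.5% of tested genes were called and room temperature replicate 3 stood apart, so these rates cannot be carried over to the data. No libraries agreed within sampling noise (chi-square per degree of freedom 15.7 to 87.3). Same-numbered libraries of the groups deviated together at r = 0.115, 0.149 and 0.155 across genes, and differently numbered ones at -0.206 to 0.0639. Deviations were taken from each group's mean, so these values depend on each other and cannot settle whether libraries were paired. The numbers, which the labels do not tie to a litter or day, were treated as possible pairs and fitted as a block in an alternative.

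The members and the gene lists were chosen with earlier results of these data known, and the mesothelial list after its values were seen. Named members were, in each family, the one with the highest scaled RPKM, up to 3 called falls and 3 called rises of largest size with separate groups and a mean of at least 1 RPM, and up to 2 not past the threshold; other members given were chosen after their values were seen, as neighbours, class members or holders of a promoter core. Some items, a family member among them, are not reported here. Dnai1 and Fgb of the marker lists were not analysed here. Means are ± SD over 3 libraries. Alternatives were other scalings, pseudocounts, read filters, voom on recovered reads, deposited RPKM plus 0.01, the block and leaving out each library.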

Additional observations from a re-analysis of the deposited data

How the results depend on the processing

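The count of members called higher was 7 to 12, and of members called lower 65 to 74, over the alternatives named in the methods above. With the replicate number as a block, 9 rose and 70 fell, and Akr1c19 was the only member whose call changed (adjusted p = 0.059). The median log2 change of tested members, -1.34, moved by more than the spread between replicates (0.137): to -1.07 with deposited scaling, -1.65 with 0.1 RPM added, -0.95 with 2 RPM added, -0.999 with no filter, -1.17 with deposited RPKM plus 0.01 and -1.66 with voom. Leaving out each library gave -1.52 (without room temperature replicate 3) to -1.28, each over the members still tested. The cause was not tested.

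Of 654 comparisons of 44 named members with an alternative, 627 kept sign and side of the threshold. A further 4 kept sign and newly passed it, and 23 changed sign, all in members not past the threshold in the main fit. Among those sign changes, Fmo5 with deposited scaling also newly passed (limma adjusted p = 0.048). With deposited scaling and with deposited RPKM plus 0.01 the sign turned in Gstt2 (0.28 and 0.28), Gstt1 (0.11 and 0.11), Aldh6a1 (0.17 and 0.17), Fmo5 (0.30 and 0.31), Ces2g (0.23 and 0.26) and Ces1g (0.093 and 0.099). Leaving out each library in turn crossed 0 in Gstt2 (-0.12 to 0.036), Aldh1a2 (-1.77 to 0.27), Akr1c14 (-0.018 to 0.22), Fmo5 (-0.15 to 0.059), Ces2g (-0.29 to 0.081) and Ces1g (-0.58 to 0.19). Counts of rises in the Akr1 and Ces families rest on genes of few reads: with a filter of 30 reads they were 0 and 0, in place of 2 and 1, and falls in the Sult family were 1 in place of 3. Members with few reads limit the test: a level under the 10-read filter was not compared, and depth covers counting error only.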
